A study of Saccharomyces cerevisiae with 12 samples.

Results

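Ribonucleotide reductase converts ribonucleotides into the deoxynucleotides (dNTPs) from which DNA is made. The transcripts of 9 budding yeast genes were followed here: the subunit genes RNR1 (YER070W), RNR2 (YJL026W), RNR3 (YIL066C) and RNR4 (YGR180C), the kinase gene DUN1 (YDL101C), the repressor gene RFX1 (YLR176C, also CRT1), and the inhibitor genes HUG1 (YML058W-A), SML1 (YML058W) and DIF1 (YLR437C). They were chosen by name, and all 9 were found among the 5449 genes measured, with 1 probe set each.

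Saccharomyces cerevisiae cultures in YPD medium at 25 °C, growing exponentially, received either 0.1% methyl methanesulfonate (MMS), which alkylates DNA bases, or 0.3 mM hydrogen peroxide (H2O2), an oxidant. RNA was hybridised to 1 Affymetrix array per stress and time point at 0, 30, 60, 100, 140 and 180 min, 12 arrays in all. The groups compared were the late MMS window (100, 140 and 180 min, n = 3), the early MMS window (30 and 60 min, n = 2), the late H2O2 window (100, 140 and 180 min, n = 3), the early H2O2 window (30 and 60 min, n = 2) and time 0 (the 0 min arrays of both courses, n = 2). The strain, its genotype and whether time points came from separate cultures are not given in the sources used here.

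The enzyme pairs a large subunit, normally Rnr1, with a small subunit that is a dimer of Rnr2 and Rnr4. Rnr3 is an alternative large subunit that unstressed cells hardly make. When DNA is damaged or replication stalls, the checkpoint kinases Mec1 and Rad53 activate the kinase Dun1. Dun1 phosphorylates the repressor Rfx1, which then leaves the promoters of RNR2, RNR3, RNR4, HUG1 and of RFX1 itself. Dun1 also marks Sml1, an inhibitor of Rnr1, and Dif1, which carries Rnr2 and Rnr4 into the nucleus, for destruction. RNR1 is set apart from the other subunit genes, since it is driven by the G1/S factor MBF and by Ixr1 rather than freed from Rfx1. These arrays measured RNA, and phosphorylation and destruction of the proteins were not measured.

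Values are log2 signals, and a log2 change of 1 is a doubling. A gene was called changed at a Benjamini-Hochberg adjusted p under 0.05 from a limma model over all 5449 genes. Array medians lay between 9.06 and 9.20 log2, and the log2 difference between the 0 min arrays had an SD of 0.15 over genes. Of all genes, 7 were 2-fold or more apart at 0 min, and none of the 9 was among them. The time points of a window stood in for replicates, so each p sets a change against the spread among time points and not among repeat cultures.

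The large subunit genes moved in opposite directions after MMS. RNR3, the damage-induced large subunit gene, read 6.30, 7.53, 8.77, 9.47, 9.28 and 9.15 log2 at 0, 30, 60, 100, 140 and 180 min of MMS. In the H2O2 course it read 6.19, 7.16, 8.45, 8.90, 9.02 and 8.65. It was thus above both 0 min arrays at every time of both stresses, with its highest value at 100 min of MMS (9.01-fold over 0 min of the same course) and at 140 min of H2O2 (7.13-fold). RNR3 averaged 9.30 ± 0.16 in late MMS, 8.86 ± 0.19 in late H2O2 and 6.24 ± 0.08 at time 0 (SD, n = 3, 3 and 2). It rose in late MMS (log2 3.06 ± 0.39 SE, adjusted p = 0.000106), early MMS (1.91 ± 0.43, adjusted p = 0.0121), late H2O2 (2.61 ± 0.39, adjusted p = 0.00582) and early H2O2 (1.56 ± 0.43, adjusted p = 0.0211).

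RNR1, the large subunit gene of unstressed dividing cells, read 10.47, 10.45, 10.15, 9.23, 8.65 and 8.52 log2 at the same times of MMS. It was level for the first 30 min and then lower at each later time, down to 3.87-fold below 0 min of the same course at 180 min. In the H2O2 course RNR1 read 10.39, 8.96, 10.23, 10.22, 10.46 and 10.61. The low value stood on a single array, that of 30 min, 2.70-fold below 0 min, and the value at 60 min lay 0.16 log2 below 0 min. The mean was 8.80 ± 0.38 in late MMS, against 10.43 ± 0.06 at time 0, and RNR1 fell there (log2 -1.63 ± 0.33, adjusted p = 0.00134). It did not pass in early MMS (-0.13 ± 0.36, adjusted p = 0.792), early H2O2 (-0.84 ± 0.36, adjusted p = 0.101) or late H2O2 (mean 10.43 ± 0.19, adjusted p = 0.996). The early H2O2 value was decided by the 30 min array: without it the change was -0.20, and without the 60 min array -1.47. From the highest group to the lowest, the order was time 0, late H2O2, early MMS, early H2O2 and late MMS, and the ranges of neighbouring groups overlapped throughout. In RNA from a whole culture, fewer cells in a cell-cycle phase and less RNA per cell cannot be told apart.

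The small subunit genes, RNR2 and RNR4, rose together and by less than RNR3 in log2 change. Their mean signals over the 12 arrays lay above 96.3% and 96.9% of all genes, against 29.6% for RNR3. Whether the arrays respond alike at such different levels was not tested, so the sizes do not rank how strongly these genes were induced. RNR2 read 11.77, 11.91, 12.07, 12.43, 12.66 and 12.66 log2 over the MMS course and 11.72, 11.88, 12.02, 12.24, 12.43 and 12.44 over the H2O2 course. RNR4 read 11.98, 12.13, 12.17, 12.38, 12.70 and 12.77 after MMS and 11.90, 11.93, 12.08, 12.38, 12.44 and 12.49 after H2O2. For both genes every array of the late windows lay above every 0 min and early array. RNR2 rose 1.79-fold in late MMS (log2 0.84 ± 0.11, adjusted p = 0.000132) and 1.54-fold in late H2O2 (0.63 ± 0.11, adjusted p = 0.0104). RNR4 rose 1.60-fold in late MMS (0.68 ± 0.12, adjusted p = 0.000628) and 1.41-fold in late H2O2 (0.50 ± 0.12, adjusted p = 0.0276). Neither passed in the early windows, where RNR2 was at 0.25 ± 0.12 after MMS and 0.21 ± 0.12 after H2O2, and RNR4 at 0.21 ± 0.13 and 0.07 ± 0.13.

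**Figure D1:**
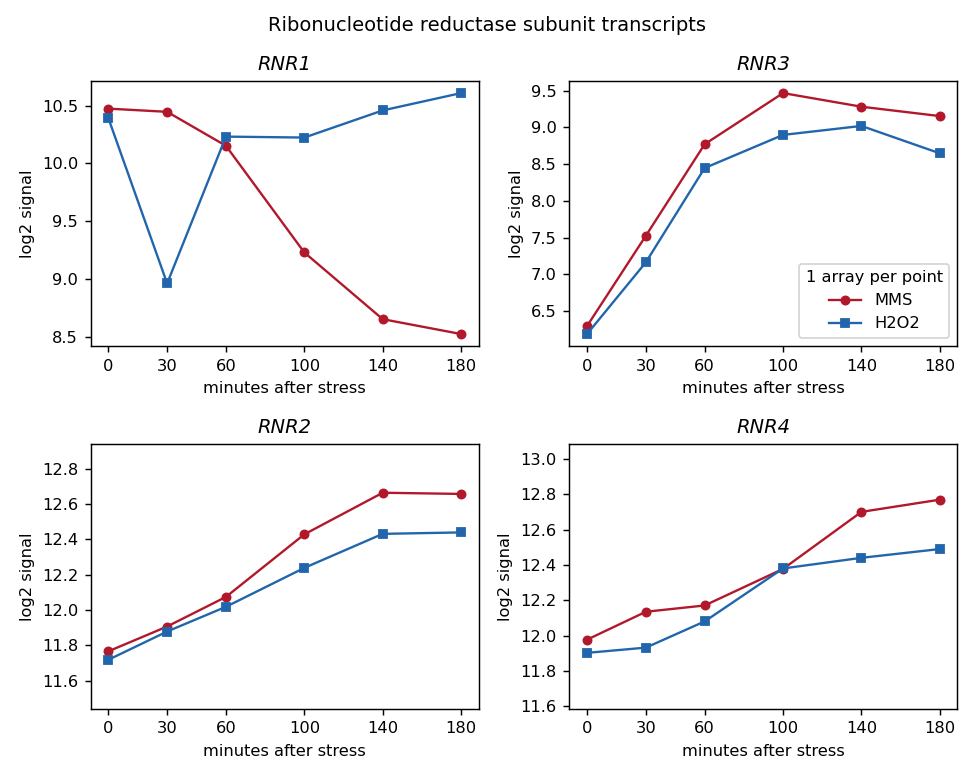
Log2 signal of the 4 subunit transcripts on each array against minutes after stress, with MMS as red circles and H2O2 as blue squares, 1 array per point. RNR3, RNR2 and RNR4 climb in both courses, while RNR1 drops to 8.52 at 180 min of MMS and dips to 8.96 at 30 min of H2O2.

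DUN1, the kinase gene, and RFX1, the gene of the repressor that Dun1 inactivates, were both higher under MMS than under H2O2 after the first hour. DUN1 read 9.06, 9.49, 9.87, 10.16, 10.25 and 9.97 log2 over the MMS course and 8.96, 9.15, 9.53, 9.46, 9.48 and 9.43 over the H2O2 course. All stressed arrays lay above both 0 min arrays, and the late MMS arrays lay above all others. DUN1 rose in late MMS (10.12 ± 0.14, against 9.01 ± 0.07 at time 0, log2 1.11 ± 0.15, adjusted p = 0.000125) and early MMS (0.67 ± 0.16, adjusted p = 0.0156). It did not pass in late H2O2 (0.44 ± 0.15, adjusted p = 0.0702) or early H2O2 (0.33 ± 0.16, adjusted p = 0.143).

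RFX1 separated the stresses by their time course. It read 7.30, 8.03, 8.41, 8.65, 8.54 and 8.63 log2 after MMS, against 7.14, 8.08, 8.06, 7.76, 7.62 and 7.61 after H2O2. The 30 min values were alike, after which RFX1 climbed under MMS and came down under H2O2 while staying above time 0. RFX1 rose in late MMS (log2 1.39 ± 0.12, adjusted p = 4.1e-05), early MMS (1.0 ± 0.13, adjusted p = 0.00174), late H2O2 (0.44 ± 0.12, adjusted p = 0.0376) and early H2O2 (0.85 ± 0.13, adjusted p = 0.00276).

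The inhibitor genes did not move as a group. HUG1 encodes a small protein that binds Rnr2, and had the widest range of the 9 genes over the 12 arrays (3.98 log2, above 97.8% of all genes). It read 6.62, 7.01, 8.04, 9.09, 9.58 and 10.03 log2 after MMS and 6.70, 6.64, 8.45, 10.01, 10.51 and 10.60 after H2O2. At 30 min of H2O2 HUG1 was still at its 0 min level, 0.06 log2 below it, and at 180 min it was 10.7-fold above 0 min after MMS and 15.0-fold above after H2O2. From 60 min on, its values were higher after H2O2 than after MMS at each time. HUG1 rose in late MMS (9.57 ± 0.47, against 6.66 ± 0.05 at time 0, log2 2.91 ± 0.50, adjusted p = 0.000487) and late H2O2 (10.38 ± 0.32, log2 3.72 ± 0.50, adjusted p = 0.00539). The early windows, which straddle this climb, did not pass (0.87 ± 0.55 after MMS, adjusted p = 0.235, and 0.89 ± 0.55 after H2O2, adjusted p = 0.229). Without the 30 min MMS array the early MMS change was 1.39, and without the 60 min array 0.35. Without the 30 min H2O2 array the early H2O2 change was 1.80, and without the 60 min array -0.02.

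SML1, which encodes the inhibitor of Rnr1, lies next to HUG1 in the RefSeq R64 annotation. Its range over the arrays, 0.61 log2, was the smallest of the 9. SML1 read 11.56, 11.28, 11.26, 11.28, 11.06 and 11.13 log2 over the MMS course and 11.54, 11.34, 11.67, 11.47, 11.58 and 11.64 over the H2O2 course. Every MMS-treated array lay below both 0 min arrays, whereas H2O2-treated arrays lay on both sides of them. SML1 fell in late MMS (log2 -0.39 ± 0.12, adjusted p = 0.0114). It did not pass in early MMS (-0.27 ± 0.13, adjusted p = 0.117), late H2O2 (0.02 ± 0.12, adjusted p = 0.926) or early H2O2 (-0.04 ± 0.13, adjusted p = 0.825).

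DIF1, whose product takes the small subunit into the nucleus and away from the large one, read 9.41, 8.56, 8.12, 8.04, 7.73 and 7.69 log2 after MMS. After H2O2 it read 9.39, 8.57, 8.73, 8.84, 9.10 and 9.09. The first drop, at 30 min, was alike under both stresses (-0.84 log2 for MMS and -0.82 for H2O2 from 0 min of the same course), and the courses then parted, downward under MMS and back toward the 0 min level under H2O2. DIF1 fell in late MMS (7.82 ± 0.19, against 9.40 ± 0.01 at time 0, log2 -1.58 ± 0.16, adjusted p = 4.8e-05), early MMS (-1.06 ± 0.17, adjusted p = 0.00352) and early H2O2 (-0.75 ± 0.17, adjusted p = 0.0111). It did not pass in late H2O2 (-0.39 ± 0.16, adjusted p = 0.117). Its 5 groups did not overlap in range, in the order time 0, late H2O2, early H2O2, early MMS and late MMS.

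**Figure D2:**
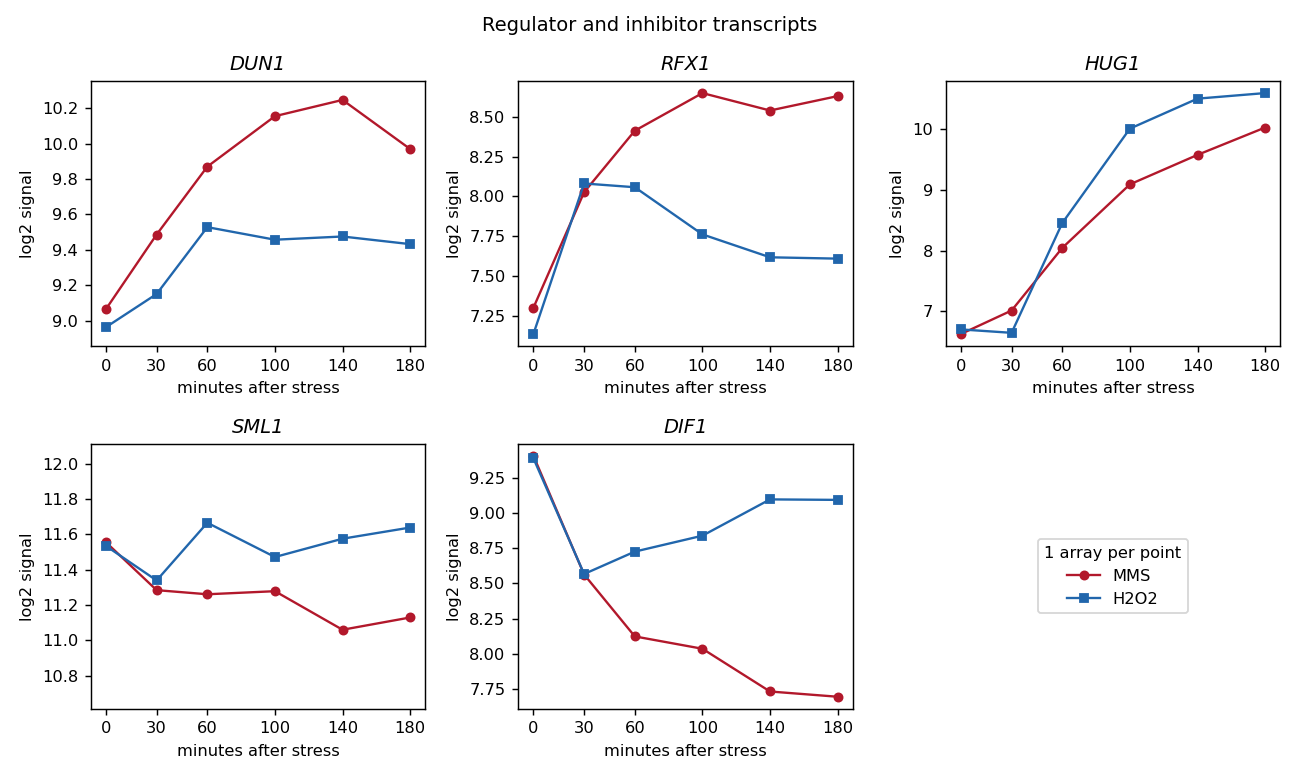
Log2 signal of the regulator and inhibitor transcripts on each array against minutes after stress, MMS as red circles and H2O2 as blue squares, 1 array per point. RFX1 and DIF1 start alike to 30 min and then part, HUG1 ends at 10.03 after MMS and at 10.60 after H2O2, and SML1 stays within 0.61 log2.

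Set side by side over windows, late MMS had the most calls, with all 9 transcripts called, 6 higher (RNR2, RNR3, RNR4, HUG1, RFX1 and DUN1) and 3 lower (RNR1, SML1 and DIF1). This must be read against a background in which 74.9% of all genes were called there, 40.3% higher and 34.6% lower. In early MMS 4 of the 9 were called, RNR3, RFX1 and DUN1 higher and DIF1 lower, where 33.1% of all genes were called, 18.7% higher and 14.3% lower. In late H2O2 5 were called, RNR2, RNR3, RNR4, HUG1 and RFX1, all higher, where 15.4% of genes were called, 9.12% higher and 6.28% lower. In early H2O2 3 were called, RNR3 and RFX1 higher and DIF1 lower, where 33.7% of genes were called, 14.7% higher and 19% lower. The median log2 change of the 9 was 0.84 in late MMS (all genes 0.09), 0.25 in early MMS (0.02), 0.44 in late H2O2 (-0.06) and 0.21 in early H2O2 (-0.04). All 4 comparisons share the time 0 arrays.

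These calls differed in how much they rested on single arrays. Where leaving out an array left a lone one in its group, its spread was taken from the other groups. In late MMS, 8 of the 9 kept their call whichever array was left out, and SML1 lost it without the 0 min array of either course (adjusted p = 0.05 and 0.06). In late H2O2 none of the 5 kept its call without the 0 min array of the H2O2 course or without that of the MMS course, with adjusted p between 0.06 and 0.24, although the log2 changes stayed close (HUG1 3.68 to 3.76, RNR3 2.56 to 2.67). Over all genes, only 9 and 6 were then called in late H2O2, against 839 with both arrays. RNR2 there also lost its call without the 140 min H2O2 array, RNR4 and RFX1 without that of 100, 140 or 180 min, and RFX1 without the 140 min MMS array. In early MMS, RNR3 and DUN1 lost their calls without either 0 min array or the 60 min MMS array, without which RNR3 was at 1.28. In early H2O2, RNR3 and DIF1 lost theirs without either 0 min array, and RNR3 also without the 60 min H2O2 array (log2 0.92). RFX1 kept its call in both early windows, and DIF1 in early MMS, whichever array was left out. With 30 min alone as the early window, RFX1 was the only call in early H2O2 and none was left in early MMS, where calls over all genes were 261 in early H2O2 and 50 in early MMS, against 1834 and 1802. With the 0 min array of its own course as the only baseline, the calls left were RFX1 and DIF1 in early MMS, RFX1 in early H2O2, none in late H2O2, and all but SML1 in late MMS. All genes gave 351 calls in early MMS, 600 in early H2O2 and 6 in late H2O2 at that setting, so the loss was general.

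**Figure D3:**
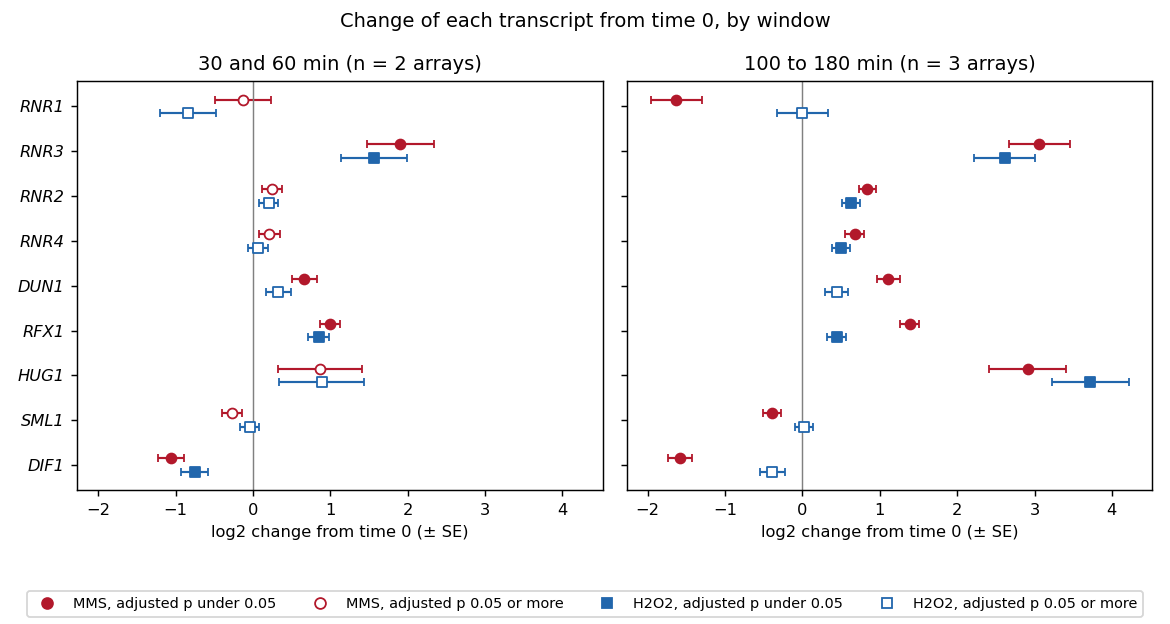
Log2 change from time 0 with its SE for each transcript in the early (left) and late (right) windows, MMS as red circles above H2O2 as blue squares, filled where the limma adjusted p was under 0.05. All 9 MMS points are filled in the late window, against 5 H2O2 points.

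Within a course, late arrays were compared with early ones. After MMS 8 of the 9 differed (48.6% of all genes were called, 27.1% higher and 21.5% lower). Higher late were HUG1 (log2 2.04 ± 0.50), RNR3 (1.15 ± 0.39), RNR2 (0.59 ± 0.11), RNR4 (0.46 ± 0.12), DUN1 (0.45 ± 0.15) and RFX1 (0.39 ± 0.12), and lower late were RNR1 (-1.50 ± 0.33) and DIF1 (-0.52 ± 0.16). SML1 did not pass (-0.12 ± 0.12, adjusted p = 0.421). Without the 30 min MMS array, RNR2 was the only call left, with RNR3 then at 0.53, DIF1 at -0.30, RFX1 at 0.19 and DUN1 at 0.25. RNR3 also lost its call without either 0 min array or any late MMS array, DIF1 without that of 140 or 180 min, RFX1 without that of 100 or 180 min, and DUN1 without that of 100 or 140 min. After H2O2 2 of the 9 were called, HUG1 (2.83 ± 0.50, adjusted p = 0.0113) and RNR2 (0.42 ± 0.11, adjusted p = 0.0483), both higher, where 9.07% of all genes were called, 4.31% higher and 4.75% lower. HUG1 lost this call without the 30 min H2O2 array (log2 1.92, adjusted p = 0.07). RNR2 lost it without any of 8 arrays, those of 0, 30, 60, 140 and 180 min of H2O2 and of 0, 140 and 180 min of MMS. The late minus early change itself differed between MMS and H2O2 for 3 of the 9, RFX1 higher and RNR1 and DIF1 lower, where 44.7% of all genes were called, 22.9% higher and 21.8% lower. With 30 min alone, or 30 to 100 min, as the early window, 0 of the 9 were called for this difference, and over all 5449 genes 17 and 0 were called at these settings, against 2435. For late against early MMS the calls were then RNR3, DIF1 and DUN1 with 30 min alone and RNR4 with 30 to 100 min, and for late against early H2O2 RNR3 with 30 min alone and none with 30 to 100 min. Over all genes these settings gave 1602 and 607 calls for MMS, against 2648, and 87 and 16 for H2O2, against 494.

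The direct comparison of the stresses asked which of these transcripts differed between 0.1% MMS and 0.3 mM H2O2. With a single dose of each, kind of damage and strength of dose cannot be told apart. In the early windows 0 of the 9 were called between MMS and H2O2 by limma, with 0 at an unadjusted p under 0.05, where 8.13% of all genes were called, 5.74% higher and 2.39% lower. In the late windows 5 of the 9 were called, a smaller share than the 70.5% of all genes called there, 39.2% higher and 31.3% lower. RNR1 (8.80 ± 0.38 in late MMS, against 10.43 ± 0.19 in late H2O2, log2 -1.63 ± 0.30, adjusted p = 0.0008), DIF1 (7.82 ± 0.19 against 9.01 ± 0.15, -1.19 ± 0.14, adjusted p = 7.2e-05) and SML1 (11.16 ± 0.11 against 11.56 ± 0.08, -0.41 ± 0.10, adjusted p = 0.00553) were lower under MMS. RFX1 (8.61 ± 0.06 in late MMS, against 7.66 ± 0.09 in late H2O2, 0.94 ± 0.11, adjusted p = 6.75e-05) and DUN1 (10.12 ± 0.14 against 9.45 ± 0.02, 0.67 ± 0.13, adjusted p = 0.00129) were higher under MMS. For each of these 5 the late arrays of the stresses did not overlap, and the call was kept whichever array was left out.

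The transcripts that Rfx1 is known to repress, other than RFX1 itself, did not pass between the late windows. RNR3 was at log2 0.45 ± 0.35 (adjusted p = 0.275), RNR2 at 0.21 ± 0.10 (adjusted p = 0.0831), RNR4 at 0.18 ± 0.11 (adjusted p = 0.162) and HUG1 at -0.81 ± 0.45 (adjusted p = 0.129), MMS minus H2O2. Missing the threshold does not show that these levels were equal, and with the time point as a block in the model RNR2, RNR3 and HUG1 passed and RNR4 did not. The late arrays overlapped between stresses for RNR2, RNR4 and HUG1, and for RNR3 every late MMS array lay above every late H2O2 array.

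Paired by time point over 30 to 180 min, 4 of the 9 were called between the stresses, where 33% of all genes were called, 21.3% higher and 11.6% lower. RNR3 (log2 0.40 ± 0.09, adjusted p = 0.0259) and DUN1 (0.54 ± 0.10, adjusted p = 0.021) were higher under MMS at 5 of 5 times, and RFX1 (0.62 ± 0.18, adjusted p = 0.0481) at 4 of 5. At 0 min the MMS course was already higher by 0.11 log2 for RNR3, 0.10 for DUN1 and 0.16 for RFX1. DIF1 (-0.84 ± 0.23, adjusted p = 0.0408) was lower under MMS at 5 of 5 times. SML1 was also lower at 5 of 5 times and did not pass (-0.34 ± 0.10, adjusted p = 0.0536). RNR1, whose difference was 1.49 log2 at 30 min and -2.09 at 180 min, did not pass (-0.70 ± 0.54, adjusted p = 0.323), nor did HUG1, RNR2 or RNR4. With 5 pairs the test left little room: 0 of the 9 were called when the array of 60, 100, 140 or 180 min of either stress was left out, with 1 to 9 calls over all genes, and 7 when that of 30 min was. RFX1 also lost its call with each array as its change from 0 min of its own course, with centred arrays, with quantile normalization and with robust moderation.

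Over the 12 arrays many of the transcripts rose and sank together. RNR2 and RNR4, whose products form 1 subunit, had a Pearson correlation of 0.97 in log2 signal, and RNR3 and HUG1 correlated with both at 0.82 to 0.89. RFX1 and DUN1 correlated at 0.89. DUN1 also went with RNR3 (0.85), RNR2 (0.79) and RNR4 (0.75), and RFX1 with RNR3 (0.71). Weaker were the correlations of RFX1 with RNR2 (0.59), RNR4 (0.54) and HUG1 (0.28), and that of DUN1 with HUG1 (0.54). DIF1 ran opposite to RFX1 (-0.97) and to DUN1 (-0.89). SML1 went with DIF1 (0.88) and RNR1 (0.79). HUG1 had little relation to SML1, its neighbour (-0.03), or to RNR1 (-0.14). Successive arrays of a course are not independent, so these values describe the arrays and carry no test.

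**Figure D4:**
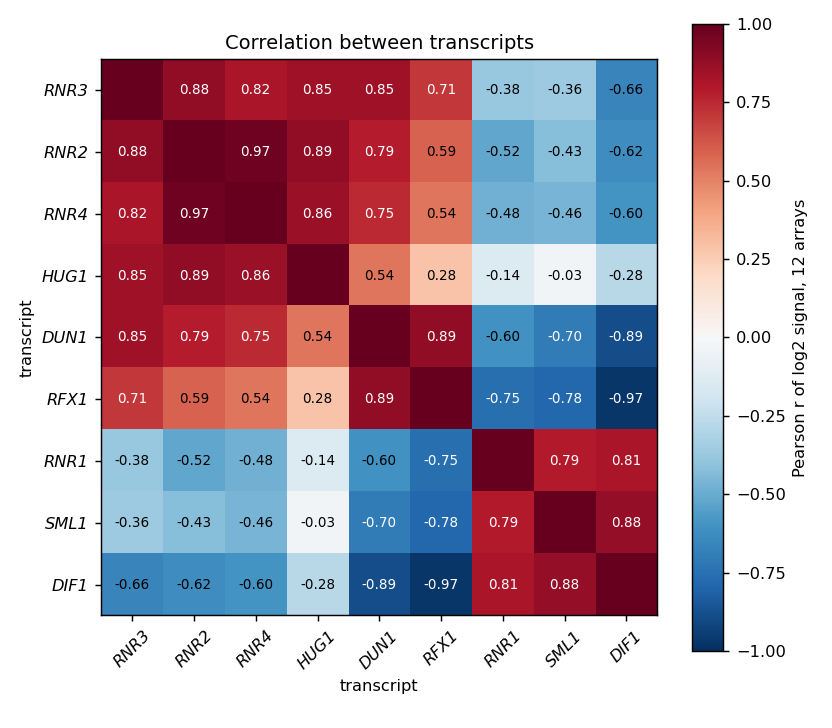
Pearson correlation of log2 signal over the 12 arrays for every pair of the 9 transcripts, from -1 (blue) to 1 (red). RNR3, RNR2, RNR4 and HUG1 form a red square with values of 0.82 to 0.97. DUN1 is close to it for RNR3 (0.85) and less so for HUG1 (0.54), and DIF1 is blue against RFX1 (-0.97) and DUN1 (-0.89).

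Among genes ranging over 1 log2 or more, those closest in pattern to each transcript over the 12 arrays were listed by the same correlation. Closest to RNR3 were COX5B (0.99), HXK1 and COQ11 (both 0.97), to HUG1 OPI3 (0.98), SIP18 (0.97) and GPP2 (0.94), and to RNR1 CLA4 (0.96), FAR1 (0.94) and SWE1 (0.93). RNR2 and RNR4 shared THI13 (0.99 and 0.95) and FRD1 (0.98 and 0.96), beside GRE1 (0.98) for RNR2 and SNO4 (0.95) for RNR4. DIF1 was followed most closely by MNN1, GIC1 and KCH1 (all 0.99), RFX1 by ATG7, HER1 and SDP1 (all 0.99), DUN1 by AIP1, PPE1 and MYO3 (all 0.97), and SML1 by MOT3 (0.96), HCM1 (0.95) and RPO41 (0.94). RNR2, RNR4 and SML1, with ranges under 1 log2, were not themselves candidates in this listing.

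Genes of the pathway upstream of Dun1 were counted in the same way. Of 12 checkpoint signalling genes, 6 rose and 3 fell in late MMS (median log2 0.26), a share close to the 74.9% of all genes called there. In late H2O2 0 of the 12 were called (median -0.13), against 15.4% of all genes. RAD17 (1.23 ± 0.16, adjusted p = 0.000109) and DDC1 (1.12 ± 0.24), subunits of the clamp that marks damaged DNA together with its Rad24 loader, rose in late MMS. DPB11, a replication initiation and checkpoint protein gene, fell (-0.73 ± 0.09). In late H2O2 the largest changes were those of DPB11 (-0.25 ± 0.09, adjusted p = 0.0873), LCD1, the partner of Mec1 (-0.24 ± 0.10, adjusted p = 0.127), and RAD24 (-0.24 ± 0.10, adjusted p = 0.142).

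Of 9 co-repressors and other regulators of the RNR genes, 6 fell and 1 rose in late MMS (median log2 -0.96, with 34.6% of all genes lower), and 1 fell in late H2O2 (median -0.34, with 6.28% of all genes lower). TUP1, the co-repressor through which Rfx1 acts, was at -1.63 ± 0.23 in late MMS (adjusted p = 0.000161) and -0.47 ± 0.23 in late H2O2 (adjusted p = 0.173). MOT3, a repressor that works with Rox1, fell in late MMS (-1.71 ± 0.24), as did NRM1, the co-repressor of MBF (-1.49 ± 0.21), and neither passed in late H2O2 (MOT3 0.11 ± 0.24, NRM1 -0.41 ± 0.21). IXR1, the activator of RNR1, fell in late MMS (-0.96 ± 0.17, adjusted p = 0.000651) and late H2O2 (-0.59 ± 0.17, adjusted p = 0.0456). RNR1 passed in late MMS and did not pass in late H2O2, and a link between these transcripts was not tested.

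Of 9 other enzymes on the way to dNTPs, 6 fell and 1 rose in late MMS (median log2 -0.76, with 34.6% of all genes lower and 40.3% higher), and 2 rose and 0 fell in late H2O2 (median -0.18, with 9.12% of all genes higher). DCD1, the dCMP deaminase (-1.91 ± 0.20, adjusted p = 5.49e-05), URA6, a pyrimidine nucleotide kinase (-1.82 ± 0.17), and DUT1, the dUTPase (-1.61 ± 0.22), fell in late MMS. None of these passed in late H2O2, where DCD1 was at -0.28 ± 0.20, URA6 at -0.30 ± 0.17 and DUT1 at -0.44 ± 0.22. YNK1, the nucleoside diphosphate kinase that makes the triphosphates, rose in late MMS (0.87 ± 0.16, adjusted p = 0.000867) and late H2O2 (0.85 ± 0.16, adjusted p = 0.0141), and CDC21, thymidylate synthase, in late H2O2 (0.33 ± 0.08, adjusted p = 0.0312).

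Of 7 other genes known to be induced by DNA damage, 6 rose and 1 fell in late MMS (median log2 2.24, with 40.3% of all genes higher), and 2 rose in late H2O2 (median 0.32, with 9.12% higher). MAG1, a glycosylase that removes alkylated bases, was at 2.94 ± 0.38 in late MMS and 0.75 ± 0.38 in late H2O2 (adjusted p = 0.000112 and 0.195), and RAD54, a recombination gene, at 2.37 ± 0.28 and 0.32 ± 0.28 (adjusted p = 7.42e-05 and 0.443). RAD2, a repair nuclease gene, was at 2.25 ± 0.25 and 0.19 ± 0.25. PHR1, photolyase (0.97 ± 0.24, adjusted p = 0.0285), and PLM2, a checkpoint-induced gene (0.92 ± 0.23, adjusted p = 0.0288), rose in late H2O2. HUG1 (3.72) and RNR3 (2.61) changed by more in late H2O2 than any of these 7. MAG1, RAD54 and RAD2 differed between the stresses late (2.19 ± 0.34, 2.06 ± 0.25 and 2.06 ± 0.23, MMS minus H2O2).

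Cell-cycle and stress lists moved alongside these transcripts, and their part in the results was not tested. Of 13 other MBF-driven G1/S genes, 3 rose and 5 fell in late MMS (median log2 -0.16), a smaller share than the 74.9% of all genes called there. In early H2O2 8 of the 13 fell (median -0.57), where 19% of all genes were lower. Their mean level was between 9.19 and 9.22 log2 in late MMS and 8.77 and 8.93 in early H2O2, against 9.33 on both time 0 arrays. CLB6, an S-phase cyclin gene, fell with RNR1 in late MMS (-2.32 ± 0.36, adjusted p = 0.000261), while RFA2 (1.70 ± 0.23) and RFA1 (1.43 ± 0.22), subunits of the single-stranded DNA binding protein, rose. The lowest mean of this list in the H2O2 course was at 30 min (-0.56 log2 from 0 min), the time at which RNR1 was lowest there (-1.43). The CLB2 cluster (-0.95) and the checkpoint signalling list (-0.30) were lowest at 30 min of H2O2 as well. The lists of histones (-0.59) and other dNTP enzymes (-0.40) were lowest at 60 min, and that of co-repressors (-0.28) at 100 min. At 60 min of H2O2 the MBF list was still at -0.40, with RNR1 at -0.16.

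Of 10 genes of the CLB2 cluster, expressed in G2 and M phase, 9 fell in late MMS (median -1.87, with 34.6% of all genes lower) and 2 in late H2O2 (median -0.59, with 6.28% lower). CLB2, a mitotic cyclin gene, was at -3.49 ± 0.32 in late MMS (adjusted p = 4.15e-05) and -1.16 ± 0.32 in late H2O2 (adjusted p = 0.0385). CLB1 was at -2.27 ± 0.36 and SWI5, a daughter-cell transcription factor gene, at -2.08 ± 0.32 in late MMS. HST3, a histone deacetylase gene, fell in late H2O2 (-0.92 ± 0.22, adjusted p = 0.0252), and BUD4 did not pass there (-0.81 ± 0.31). Of 8 histone genes, made in S phase, 6 fell in late MMS (median -0.60), among them HTB2 (-4.19 ± 0.43), HTA2 (-1.51 ± 0.26) and HTA1 (-1.34 ± 0.22), and 0 were called in late H2O2 (HTA1 -0.51 ± 0.22, HTB2 -0.51 ± 0.43, HHT1 -0.31 ± 0.09). HTA2 was measured by a probe set whose gene has a near-identical copy, HTA1, so their split is uncertain. Whether the probe sets of the other histone genes, HTB2 and HHT1 among them, tell copies apart was not tested.

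All 16 Msn2/4 general stress genes rose in late MMS and 13 in late H2O2 (medians 3.11 and 1.90), where 40.3% and 9.12% of all genes were higher. DDR2 was at 5.68 ± 0.46 in late MMS and 4.62 ± 0.46 in late H2O2, and HXK1, among the genes closest to RNR3 in pattern, at 4.5 ± 0.62 and 4.12 ± 0.62. TFS1 and PGM2 (both 5.24 ± 0.67 in late MMS) and HSP12 (3.46 ± 0.78 in late H2O2) rose as well. The mean level of this list was 11.67 to 11.91 log2 in late MMS and 10.05 to 10.88 in late H2O2, against 8.19 and 8.32 at time 0.

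**Figure D5:**
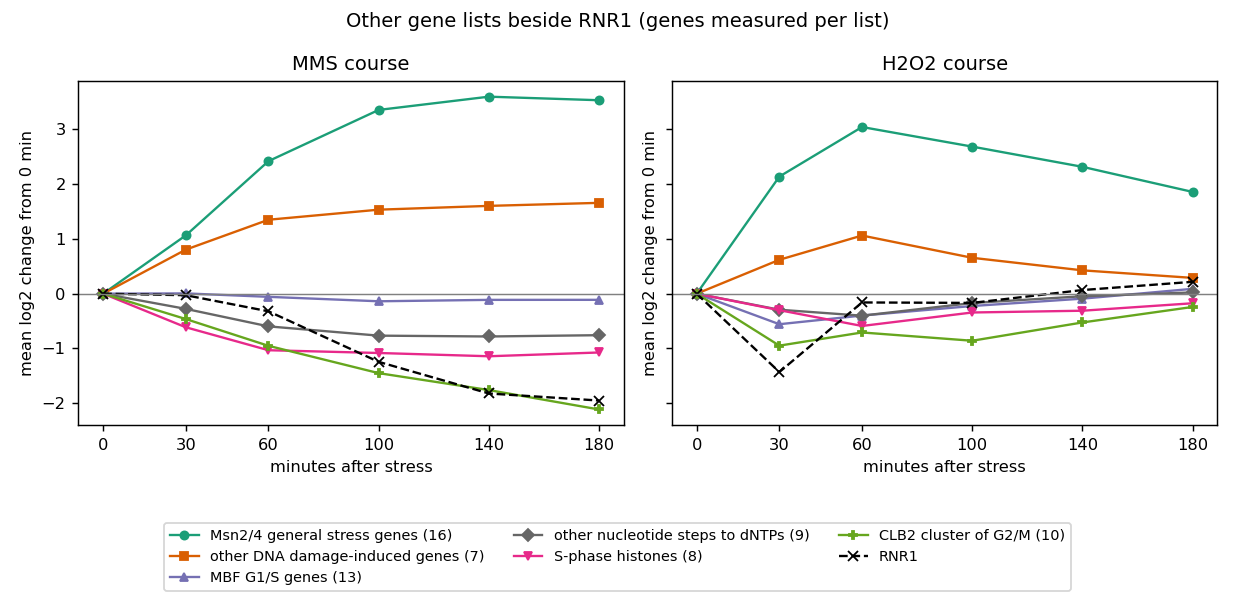
Mean log2 change from 0 min of the same course for 6 gene lists, with RNR1 as a black dashed line, against minutes after stress, MMS course left and H2O2 course right, 1 array per point. At 180 min of MMS RNR1 is at -1.95 and the CLB2 cluster at -2.12, while the mean of the MBF list stays near 0. Of the 13 genes of the MBF list, 3 rose and 5 fell in late MMS. After H2O2 RNR1, the MBF list and the CLB2 cluster are all lowest at 30 min.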

How the data were processed

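Each deposited array file gives a log2 signal per probe set, computed by the authors with RMA, per the submitters' processing notes. Its version and whether all arrays were normalized together are not given in the sources used here. Per the labels, biotin-labelled cRNA came from poly(T)-primed cDNA of total RNA. Of 5900 probe sets, 184 were controls and 5498 had 1 annotated gene. The brightest probe set per gene gave 5449 genes. Symbols were updated through RefSeq R64, which also gave locus tags and neighbours. No sequence table was used here.

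A 5-group model was fitted to the 12 arrays with limma 3.58.1 in R 4.3.3 (7 residual degrees of freedom), and a second with time point as a factor to the 10 stressed arrays. Both were run on simulated data with independent noise, no trend within windows and few changed genes. That setting is simpler than these courses, so it does not test the models for them. Dim probe sets were kept, and 1 array per time point limits precision.

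The 9 genes and 10 further lists were chosen with earlier results of these data known. Named genes are the 9, the 3 largest changes per list in each late window, and the 3 genes closest in pattern to each of the 9. Listed genes not measured were not analysed here. Alternatives were another baseline, scaling (median centring, quantile), filtering, moderation, probe set choice and windows, the time point as a block, and leaving out each array.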

Additional observations from a re-analysis of the deposited data

Results flagged for a closer look

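The late minus early change was tested for a difference between the stresses, and 3 of the 9 transcripts passed, where 44.7% of all genes did. RNR1 changed by -1.50 ± 0.33 log2 from early to late under MMS, against 0.83 ± 0.33 under H2O2, a difference of -2.33 ± 0.47 (adjusted p = 0.00892). Without the 30 min H2O2 array, on which the low early H2O2 value of RNR1 rests, the difference was -1.70. DIF1 changed by -0.52 ± 0.16 under MMS, against 0.36 ± 0.16 under H2O2, a difference of -0.89 ± 0.22 (adjusted p = 0.014), which was -0.67 (adjusted p = 0.054) without the 30 min MMS array. RFX1 changed by 0.39 ± 0.12 under MMS, against -0.41 ± 0.12 under H2O2, a difference of 0.79 ± 0.17 (adjusted p = 0.0102). Of these 6 changes within a course, those of RNR1, DIF1 and RFX1 under MMS passed on their own and those under H2O2 did not. With the early window set to 30 min alone, or to 30 to 100 min, 0 of the 3 differences passed, and over all 5449 genes 17 and 0 were called, against 2435.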

How the results depend on the processing

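Of 90 comparisons of a transcript, 43 were called. All 8 late MMS calls other than SML1, all 5 late calls between MMS and H2O2, and RFX1 in early H2O2 held under every alternative run, except that RFX1 was not tested with the dimmest 25% of genes left out. No called value changed sign under any alternative. Counts of calls among the 9 that moved by over 1.5 times were as follows. With the 0 min array of its own course as the only baseline of a window, they were 2 in early MMS, 1 in early H2O2, 0 in late H2O2 and 1 for late against early H2O2. With arrays centred on their medians, the last was 1. With 30 min alone as the early window, which leaves fewer arrays, they were 0 in early MMS, 1 in early H2O2, 3 for late against early MMS, 1 for late against early H2O2 and 0 for the difference of these changes. With 30 to 100 min as the early window, they were 0 in late H2O2, 1 for late against early MMS, 0 for late against early H2O2, 1 for early MMS against early H2O2 and 0 for the difference. With the time point as a replicate block, they were 5 in early H2O2, 5 for late against early H2O2 and 8 for late MMS against late H2O2, where RNR2, RNR3 and HUG1 were added. The deviations of arrays of the same time correlated at 0.57 in the early windows and 0.08, 0.14 and 0.15 in the late ones. With 2 arrays per early window the deviations mirror each other, so the early value is a single number that differs only in sign. Late arrays correlated best with that of their own time except that of 100 min of H2O2. Deviations within a late window are tied to each other as well, so these are not separate agreements. Without the block, RNR3 (0.40) was not called in the comparison paired by time and SML1 (-0.34) was. Leaving out each array in turn, where a lone array of a group is assumed to vary like the others, gave 8 to 9 calls in late MMS, 2 to 4 in early MMS, 0 to 6 in late H2O2, 1 to 4 in early H2O2, 1 to 8 for late against early MMS, 0 to 5 for late against early H2O2, 5 to 7 for late MMS against late H2O2, 0 to 1 for early MMS against early H2O2, 2 to 3 for the difference and 0 to 7 in the paired comparison. Over all genes, calls ranged from 3214 to 4225 in late MMS, 50 to 2664 in early MMS, 6 to 1640 in late H2O2, 261 to 2397 in early H2O2, 607 to 3102 for late against early MMS, 16 to 1242 for late against early H2O2, 6 to 1021 for early MMS against early H2O2, 0 to 3009 for the difference and 1 to 2916 in the paired comparison, against 4082, 1802, 839, 1834, 2648, 494, 443, 2435 and 1797 as reported. Signs turned for values that were not called. With 30 min as the early window, HUG1 was at 0.37 and RFX1 at -0.055 for early MMS against early H2O2, HUG1 at -0.018 and RNR4 at -0.0078 in early H2O2, RNR1 at 0.013 in early MMS and RNR4 at -0.046 for the difference. RNR1 in late H2O2 was at 0.038 with its own baseline, 0.028 with centred arrays, 0.027 with quantile normalization and 0.10 with the 30 to 100 min window, where RNR3 was at -0.034 for the difference. With centred arrays RNR2 was at -0.063 for early MMS against early H2O2 and SML1 at 0.011 in early H2O2. Leaving out arrays gave these ranges: in early H2O2 HUG1 -0.018 to 1.80, RNR4 -0.0078 to 0.14 and SML1 -0.21 to 0.12, in late H2O2 RNR1 -0.092 to 0.10 and SML1 -0.021 to 0.062, in early MMS RNR1 -0.28 to 0.013, for late against early H2O2 DUN1 -0.073 to 0.30 and SML1 -0.10 to 0.22, for early MMS against early H2O2 HUG1 -0.93 to 0.89, RFX1 -0.043 to 0.34, RNR2 -0.042 to 0.13 and RNR3 -0.30 to 0.98, and for the difference HUG1 -1.69 to 0.12, RNR3 -0.54 to 0.75 and RNR4 -0.0445 to 0.15. For early MMS against early H2O2 the median log2 change of all genes was -0.06 with centred arrays, against 0.05 as deposited. The cause of these moves was not tested. With 1 array per stress and time, a peak between sampled times and the spread among cultures were not measured.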

Other observations

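Genes that place ribonucleotide reductase in the cell, supply its iron cofactor or reduce it were measured as a further list of 10. In late MMS 5 rose and 2 fell (median log2 0.41), and in late H2O2 1 rose and 0 fell (median 0.00), shares close to the 74.9% and 15.4% of all genes called in these windows. WTM1, whose product anchors the small subunit in the nucleus, rose in late MMS (1.01 ± 0.11, adjusted p = 5.93e-05) and was at 0.31 ± 0.11 in late H2O2 (adjusted p = 0.0863). DRE2 and TAH18, which pass electrons for cofactor assembly, were at 0.91 ± 0.28 and 0.55 ± 0.36 in late MMS and at -0.69 ± 0.28 and -0.49 ± 0.36 in late H2O2. Both differed between the late windows (1.60 ± 0.25, adjusted p = 0.000362, and 1.04 ± 0.32, adjusted p = 0.0156, MMS minus H2O2). The thioredoxin gene TRX2 rose in late MMS (0.69 ± 0.14) and late H2O2 (0.48 ± 0.14, adjusted p = 0.0443), and the thioredoxin reductase gene TRR1 in late MMS (0.92 ± 0.30).

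Of 10 sporulation genes, followed as a sign of another cell state, 9 rose and 1 fell in late MMS (median log2 0.66) and 1 rose in late H2O2 (median 0.22), where 40.3% and 9.12% of all genes were higher. HOP1 was at 1.41 ± 0.24, SMK1 at 1.10 ± 0.22 and ZIP1 at 1.02 ± 0.18 in late MMS, and in late H2O2 HOP1 was at 0.59 ± 0.24, SPO11 at 0.58 ± 0.14 (adjusted p = 0.0263) and NDT80 at 0.53 ± 0.23. The mean level of the list stayed low, at 5.88 to 5.97 log2 in late MMS and 5.44 to 5.47 in late H2O2, against 5.24 on both time 0 arrays.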
